A study of Mus musculus with 6 samples.

Results

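A set of 10 genes that mark fibroblast identity or fibroblast activation was followed in infarct scars of the mouse left ventricle. They were taken by symbol from the deposited gene table, which held all 10 among its 14798 genes, and all 10 passed the filter on low counts, which kept 14771 genes. Of these, 4 mark resident and adventitial fibroblasts (Tcf21, Dpt, Pi16 and Scara5), 3 are stromal surface or mesenchymal markers (Thy1, Cd248 and Prrx1) and 3 go with activation (Fap, Meox1 and Cthrc1). Extracted total RNA, described in the series text as sequenced for polyA RNA, came from 3 Sox9-deletion libraries (genotype written Sox9 fl/perCre, a floxed Sox9 allele with a Cre labelled Per-Cre) and 3 control libraries (Sox9 fl/fl without the Cre). Floxed Sox9 is thus shared by both groups, and the labels do not spell out the promoter behind the name Per-Cre, although the series text ascribes the deletion to fibroblasts. The infarct was made by coronary ligation in mice 10 weeks old, scars were taken 6 weeks later, and the labels give an age of 14 to 16 weeks. The labels give neither strain nor sex. They also do not say whether each library is a different animal. The p-values below therefore speak only of library-to-library spread, which may be partly or, in the deletion group, wholly technical.

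Fibroblasts are the main source of collagenous matrix in the heart. After an infarct, resident fibroblasts proliferate, become matrix-secreting myofibroblasts and later settle into a quieter state that maintains the scar. Identity genes such as Tcf21 and Dpt are carried by resting fibroblasts, whereas Fap, Meox1 and Cthrc1 are known from injured or overloaded mouse hearts as genes of the activated state. Sox9, a transcription factor of cartilage and of several progenitor cells, binds DNA through a high mobility group box.

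Levels are given as CPM, counts scaled to a common library total with TMM factors, and adjusted p-values are over all genes tested. Total counts ran from 22666770 to 48515962 in the deletion libraries and from 18538171 to 55523974 in the controls. Every count of replicates 2 and 3 of both groups was even, against 49.3% and 49.9% of genes in deletion and control replicate 1. Replicate 1 against replicates 2 and 3 is treated below as a batch, a division that no label states and whose origin was not tested. Rn45s, the ribosomal precursor RNA, followed it, at 22480, 931 and 960.9 CPM in deletion replicates 1 to 3, against 12180, 623 and 1004 CPM in control replicates 1 to 3. Xist, the RNA of the inactive X chromosome, reached 812 CPM in control replicate 3, a female profile, and no more than 7.61 CPM in any other library. Ddx3y, a gene of the Y chromosome, was at 0.596 CPM there and between 122 and 146 CPM in every other library. Control replicate 3 thus came from another animal than the other controls, and the part of sex in the values below was not tested. Sox9 itself was at 42.1, 51.7 and 55.8 CPM in deletion replicates 1 to 3, against 71.1, 75.8 and 67.7 CPM in control replicates 1 to 3, with a log2 fold change of -0.52 ± 0.15 (SE, edgeR adjusted p = 0.564). Cardiomyocyte markers, 14 of 14 measured and none at 0, summed to between 84540 and 172600 CPM in the deletion libraries and between 55300 and 88430 CPM in the controls, with the highest sum in deletion replicate 1. In bulk tissue, fewer fibroblasts and less RNA per fibroblast cannot be told apart, and the part of tissue composition in the values below was not tested.

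RefSeq promoters (GRCm38.p6) were matched for 4 of the 10 genes: Tcf21, Dpt, Pi16 and Prrx1. The 250 bases before the start of the first 3 are shown because Tcf21 had the largest difference among the matched genes, and because Dpt and Pi16, the most abundant of the 10, shared their lowest and their highest library. The windows end at the RefSeq starts of that table, which for Tcf21 and Dpt are not the gene ends listed with the counts. The GENCODE annotation starts Pi16 at 29317680, so the whole Pi16 window lies inside that annotated gene. Its starts of Tcf21 (22820174) and Dpt (164796644) fall inside their windows. Capitals mark SOX cores (ACAAT or ACAAAG, either strand) and E-boxes (CANNTG, the letters bound by basic helix-loop-helix factors, a family to which TCF21 belongs). The strand is minus for Tcf21 at chr10:22820144-22820393, plus for Dpt at chr1:164796413-164796662 and plus for Pi16 at chr17:29318632-29318881.
Tcf21: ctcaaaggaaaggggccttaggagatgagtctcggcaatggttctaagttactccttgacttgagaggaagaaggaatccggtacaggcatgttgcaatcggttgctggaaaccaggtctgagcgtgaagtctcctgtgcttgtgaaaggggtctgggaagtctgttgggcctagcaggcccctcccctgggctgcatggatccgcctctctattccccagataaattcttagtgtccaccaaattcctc
Dpt: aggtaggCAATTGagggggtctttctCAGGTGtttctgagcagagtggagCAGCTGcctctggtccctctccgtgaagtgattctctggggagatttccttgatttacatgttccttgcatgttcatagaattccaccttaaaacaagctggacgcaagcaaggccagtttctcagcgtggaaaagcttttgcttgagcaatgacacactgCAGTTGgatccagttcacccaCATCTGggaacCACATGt
Pi16: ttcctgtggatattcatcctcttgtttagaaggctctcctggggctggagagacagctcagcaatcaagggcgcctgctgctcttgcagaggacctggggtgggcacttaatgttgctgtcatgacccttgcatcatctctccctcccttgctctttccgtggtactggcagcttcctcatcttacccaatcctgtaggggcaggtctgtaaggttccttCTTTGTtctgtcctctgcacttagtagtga

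Of the 4 promoters, 1 held a SOX core, the reverse-strand ACAAAG between 30 and 25 bases before the Pi16 start. Either core was present in 38.8% of the 32851 promoters of the same length, ACAAT in 27.7% and ACAAAG in 16.5%. Dpt held 6 E-boxes in its window and the other 3 held none. An E-box was present in 66.2% of all promoters, and at least 6 in 0.274%. This last share was looked up after the Dpt sequence had been seen. None of the 4 held TATAAA, which was present in 12.4% of all promoters. These are letters in a window and say nothing of binding.

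Cthrc1 had the largest difference of the 10, and it was the 1 gene whose deletion libraries all lay below its control libraries. Tcf21 was the next largest difference, also lower in deletion scars, and Meox1, Cd248 and Thy1 had smaller negative differences. None of the 10 passed an edgeR adjusted p of 0.05, and neither did any of the 14771 genes tested (0%). At an unadjusted p below 0.05, 1 of the 10 was lower in deletion scars, Cthrc1, against 3.04% of all genes lower and 8.34% in either direction. DESeq2 at an adjusted p of 0.05 also called Cthrc1, against 0.346% of all genes, 0.224% higher and 0.122% lower in deletion scars. In simulated counts with the spread of the main fit, DESeq2 called 61 unchanged genes and edgeR 2, so DESeq2 was the less strict. There edgeR recovered 12% of genes with a true log2 fold change of 1 in size, so genes it does not call are not shown to be unchanged. Once the batch entered the model, edgeR called none of the 10 and 0.00677% of all genes, and DESeq2 called Cthrc1 and Tcf21, against 13% of all genes in either direction and 4.12% lower in deletion scars. That DESeq2 fit was added after seeing the data. The log2 fold change (deletion minus control) was negative in 8 of the 10, against 52.4% of all genes, with a median of -0.29 against -0.02 for all genes tested. Groups did not overlap, with deletion lower, in 1 of the 10, against 8.6% of all genes (17.5% in either direction), so the counts of the 10 by overlap and by unadjusted p were near those of all genes.

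**Figure D1:**
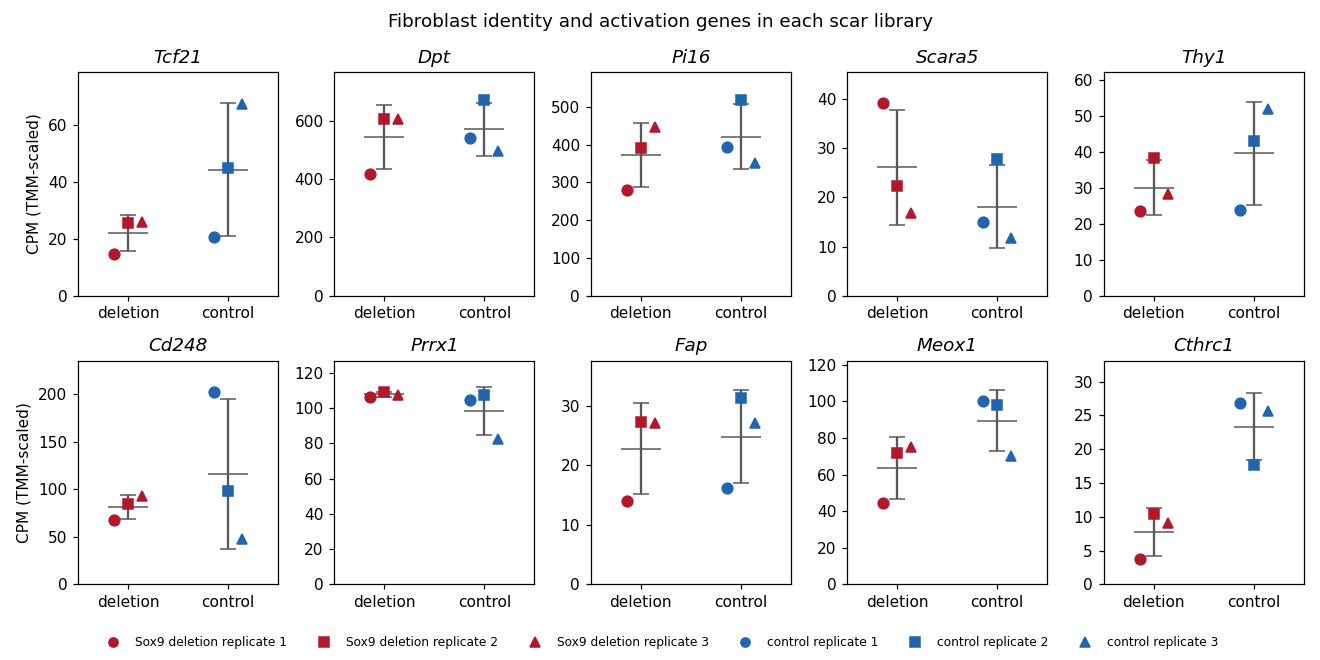
Level of each gene (y axis, CPM scaled with TMM factors, each panel starting at 0) in 3 Sox9-deletion libraries (red) and 3 control libraries (blue), with marker shape for the replicate number, the mean as a grey line and the SD as bars. Cthrc1 is the 1 panel without overlap: its deletion libraries reach at most 10.4 CPM and its control libraries start at 17.7 CPM.

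Among the resident markers, Tcf21, a basic helix-loop-helix factor needed for cardiac fibroblasts to form from the epicardium in the mouse, had a fitted level in deletion scars of 0.500 times that in controls, with much spread among the controls. The gene lies on the minus strand of chromosome 10 between 22817275 and 22820128 (mm10), and no other GENCODE gene overlaps its exons. It was at 14.8, 25.6 and 26.1 CPM in deletion replicates 1 to 3, against 20.7, 45.0 and 67.5 CPM in control replicates 1 to 3. Control replicate 1 lay below deletion replicates 2 and 3, so the groups overlapped, and within each batch the deletion libraries were below the controls. Fitted over all libraries, the log2 fold change was -1.0 ± 0.44 (SE, 95% interval -2.05 to 0.05, edgeR adjusted p = 0.564). The replicate 1 pair gave -0.48, replicates 2 and 3 gave -1.14, and the fit gave -0.92 with the batch term (edgeR adjusted p = 0.0803, DESeq2 adjusted p = 0.00240). Leaving out control replicate 3 gave -0.57 and leaving out control replicate 1 gave -1.34. Macrophage markers, 12 of 12 measured and none at 0, put the 6 libraries, by their summed CPM, in the same order as Tcf21, from deletion replicate 1 at the bottom to control replicate 3 at the top, with sums from 765 to 1607 CPM in deletion scars and from 1235 to 2909 CPM in controls. By the mean log2 level of the list, deletion replicates 2 and 3 changed places. The part of these markers in the Tcf21 result was not tested.

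Dpt and Pi16 were close to level between the groups. Dpt encodes dermatopontin, a small matrix protein found in fibroblasts of most mouse tissues, on the plus strand of chromosome 1 from 164796732 to 164824266. It was at 418, 608 and 608 CPM in deletion replicates 1 to 3, against 541, 673 and 498 CPM in control replicates 1 to 3. Deletion replicate 1 was the lowest library, deletion replicates 2 and 3 lay inside the control range, and the log2 fold change was -0.07 ± 0.23 (SE, 95% interval -0.61 to 0.48, edgeR adjusted p = 0.926). Pi16 encodes peptidase inhibitor 16, a secreted marker of fibroblasts around vessels, on the plus strand of chromosome 17 from 29318882 to 29328902, and shares 222 exonic bases with an antisense gene, whose reads cannot be told apart where strand was not used. It was at 279.5, 392 and 447 CPM in deletion replicates 1 to 3, against 395, 517 and 352 CPM in control replicates 1 to 3, and again deletion replicate 1 was lowest and control replicate 2 highest. Its log2 fold change was -0.18 ± 0.25 (SE, 95% interval -0.76 to 0.41, edgeR adjusted p = 0.791). For both genes the replicate 1 pair gave a negative value (-0.37 for Dpt and -0.50 for Pi16) and replicates 2 and 3 a value near 0 (0.04 for Dpt and -0.07 for Pi16). Dpt turned to 0.08 without deletion replicate 1 and to 0.07 without control replicate 2, and Pi16 was at -0.003 without control replicate 2.

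Scara5 went the other way in a single library. It encodes a class A scavenger receptor that takes up ferritin in the mouse and lies on the plus strand of chromosome 14 from 65666403 to 65764826. It was at 39.2, 22.3 and 16.8 CPM in deletion replicates 1 to 3, against 14.9, 27.8 and 11.8 CPM in control replicates 1 to 3. Deletion replicate 1 stood above all others and the remaining libraries of the groups were interleaved. Its fitted log2 fold change was 0.52 ± 0.42 (SE, 95% interval -0.49 to 1.53, edgeR adjusted p = 0.663). The replicate 1 pair gave 1.39, against -0.03 for replicates 2 and 3 and 0.10 without deletion replicate 1. Pericyte markers (10 of 10 measured, none at 0) were also highest in that library, at 1848 CPM in sum against 917 and 1086 CPM in the other deletion libraries and 792 to 1075 CPM in controls. So were endothelial markers, at 1847 CPM against 1061 and 1103 CPM in the other deletion libraries and 1003 to 1185 CPM in controls. Cardiomyocyte markers were highest there too. The part of these lists in the Scara5 value was not tested.

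Of the stromal markers, Thy1 and Cd248 had lower means in deletion scars and Prrx1 was nearly constant. Thy1 encodes a surface glycoprotein of fibroblasts that T cells and neurons of the mouse also carry, on the plus strand of chromosome 9 from 44043384 to 44048579. It was at 23.4, 38.4 and 28.4 CPM in deletion replicates 1 to 3, against 23.8, 43.1 and 52.0 CPM in control replicates 1 to 3. The replicate 1 libraries of both groups were level and lowest, and the difference lay in replicates 2 and 3. In log2 terms the fitted change was -0.40 ± 0.32 (SE, 95% interval -1.16 to 0.37, edgeR adjusted p = 0.659), split into -0.02 for the replicate 1 pair and -0.52 for replicates 2 and 3, and it was -0.15 without control replicate 3 and -0.66 without control replicate 1. T cell markers, 11 of 13 listed and none at 0, summed to between 15.9 and 50.9 CPM in deletion scars and to 19.3, 24.8 and 162 CPM in control replicates 1 to 3, so the library highest in Thy1 was also highest in them. Their part in the Thy1 value was not tested.

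Cd248 encodes endosialin, a surface protein of stromal fibroblasts and pericytes, from a single exon on the plus strand of chromosome 19 from 5068078 to 5070639. It was at 67.8, 84.0 and 92.7 CPM in deletion replicates 1 to 3, against 202, 98.5 and 47.6 CPM in control replicates 1 to 3. The controls alone spanned the whole range of the 6 libraries, while the deletion libraries sat together inside it. For Cd248 the log2 fold change was -0.51 ± 0.48 (SE, 95% interval -1.66 to 0.65, edgeR adjusted p = 0.702). The replicate 1 pair gave -1.57 but replicates 2 and 3 gave 0.26, and the fit gave 0.16 without control replicate 1 and -0.88 without control replicate 3, so its direction rested on control replicate 1. That library also had the highest sums of epicardial and mesothelial markers (9 of 10 listed, none at 0), at 227 CPM against 22.8 to 96.6 CPM in deletion scars and 120 and 39.8 CPM in the other controls. Adipocyte markers (8 of 8 listed) were likewise highest there, at 317 CPM against 128 to 237 CPM in deletion scars and 105 and 118 CPM in the other controls, with Adipoq, Plin1 and Lep at 0 in at least 1 library. By summed CPM, smooth muscle markers (4796 CPM) and Schwann and neuronal markers (39.18 CPM, against 39.05 CPM in control replicate 2) were also highest in control replicate 1. Pericyte markers were not, at 1006 CPM in control replicate 1 and 1848 CPM in deletion replicate 1. Mean log2 levels, taken from the mean of the 6 libraries, gave another order for smooth muscle markers, at -0.101 in control replicate 1 and highest in control replicate 2 (0.207). By that measure Schwann and neuronal markers were highest in deletion replicate 2 (0.334, against 0.224 in control replicate 1). None of these lists was tested as a part of the Cd248 value.

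Prrx1, a homeobox factor of embryonic and adult mesenchyme on the minus strand of chromosome 1 from 163245119 to 163313650, varied least of the 10. It was at 106, 109 and 108 CPM in deletion replicates 1 to 3, against 105, 108 and 82.6 CPM in control replicates 1 to 3. All libraries but control replicate 3 lay between 105 and 109 CPM, and the highest level was 1.32 times the lowest. Its log2 fold change was 0.13 ± 0.15 (SE, 95% interval -0.22 to 0.48, edgeR adjusted p = 0.737), and it was 0.02 without control replicate 3.

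**Figure D2:**
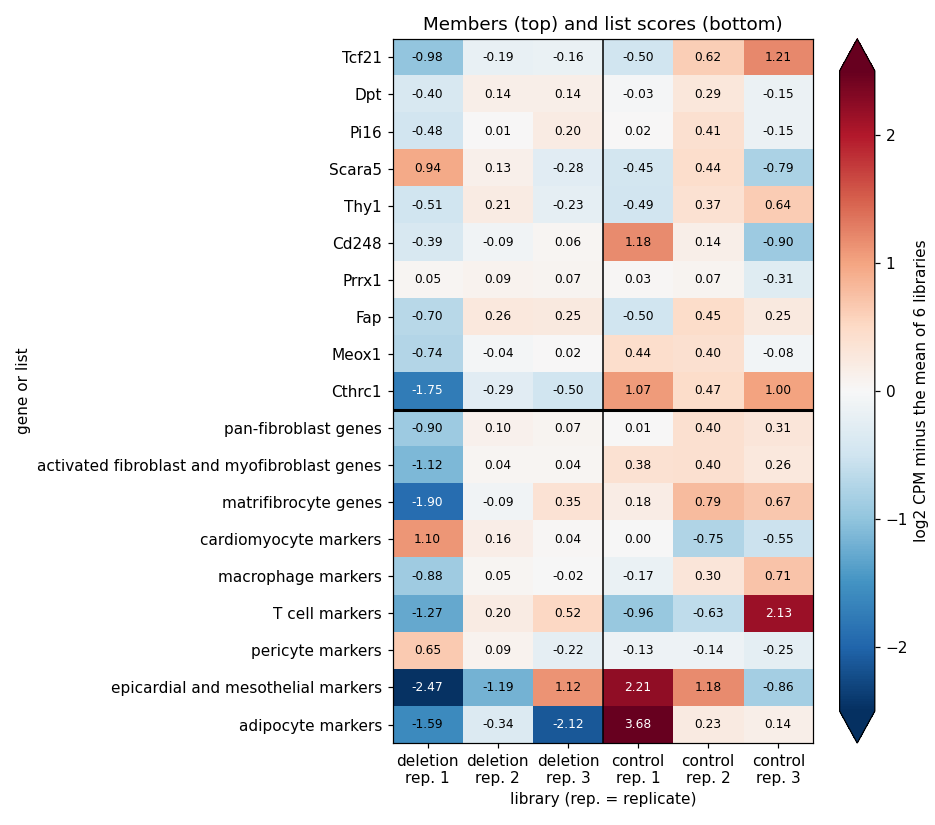
Each cell gives log2 CPM minus the mean of the 6 libraries, for the 10 genes (top) and for the mean of the lists named at the left (bottom), with 3 Sox9-deletion libraries left of 3 control libraries and rep. for replicate. Deletion replicate 1 is low for Cthrc1 (-1.75), the pan-fibroblast list (-0.90) and the matrifibrocyte list (-1.90) and high for cardiomyocyte markers (1.10), while Cd248 is high in control replicate 1 (1.18) and Tcf21 in control replicate 3 (1.21).

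The 3 activation genes were all lowest in deletion replicate 1, and one of them, Cthrc1, was also lower in the other deletion libraries. Cthrc1 encodes collagen triple helix repeat containing 1, a secreted glycoprotein of activated fibroblasts in injured mouse arteries and infarcts, on the plus strand of chromosome 15 from 39076932 to 39087119. It was at 3.75, 10.4 and 9.02 CPM in deletion replicates 1 to 3, against 26.8, 17.7 and 25.6 CPM in control replicates 1 to 3. The lowest value rests on 71 reads, for which the exact Poisson 95% interval, covering counting error only, is 2.93 to 4.73 CPM. The mean was 7.72 ± 3.51 CPM in deletion scars and 23.4 ± 4.98 CPM in controls (SD, n = 3 each), and the fold fitted by edgeR was 0.335. The fitted log2 fold change was -1.58 ± 0.39 (SE, 95% interval -2.5 to -0.66), with an unadjusted p of 0.00518 in edgeR, rank 51 of 14771, and an edgeR adjusted p of 0.564. The replicate 1 pair gave -2.82 and replicates 2 and 3 gave -1.17, and the value was negative in all 21 alternatives, and between -1.85 and -1.27 when 1 library was left out (-1.27 without deletion replicate 1, and -1.5 without control replicate 3). DESeq2 gave an adjusted p of 0.0378, and with the batch term edgeR gave 0.0821 and DESeq2 0.000204. Over the alternatives with a test, its adjusted p ran from 0.000204 to 0.908 and passed 0.05 in 3 of 20. Of these 3, only DESeq2 without the batch term was planned. The other passes, DESeq2 and the pan-fibroblast scaling each with the batch term, were added after seeing the data. A lower log2 fold change was found for 0.67% of all genes. Deletion replicate 1, the lowest in 7 of the 10 genes, was also highest in cardiomyocyte markers, and the part of these in the activation genes was not tested.

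Meox1 encodes a homeobox factor that drives fibroblast activation in pressure-overloaded mouse hearts, on the minus strand of chromosome 11 from 101877510 to 101894354. It was at 44.4, 71.9 and 74.9 CPM in deletion replicates 1 to 3, against 100.3, 97.8 and 70.2 CPM in control replicates 1 to 3. Control replicate 3 lay below deletion replicates 2 and 3, so the groups overlapped. The log2 fold change was -0.49 ± 0.25 (SE, 95% interval -1.08 to 0.10, edgeR adjusted p = 0.565), with -1.17 from the replicate 1 pair and -0.21 from replicates 2 and 3. It was -0.29 without deletion replicate 1. Fap encodes fibroblast activation protein, a membrane serine protease, on the minus strand of chromosome 2 from 62500936 to 62574021. It was at 14.0, 27.3 and 27.1 CPM in deletion replicates 1 to 3, against 16.1, 31.3 and 27.1 CPM in control replicates 1 to 3. The batch separated these libraries and the genotype did not: both replicate 1 libraries were below all others. The log2 fold change was -0.12 ± 0.34 (SE, 95% interval -0.93 to 0.69, edgeR adjusted p = 0.906), and it turned to 0.11 without deletion replicate 1 and to 0.08 without control replicate 2. Tcf21 and Thy1 shared this feature, since their lowest levels were also those of the replicate 1 libraries.

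**Figure D3:**
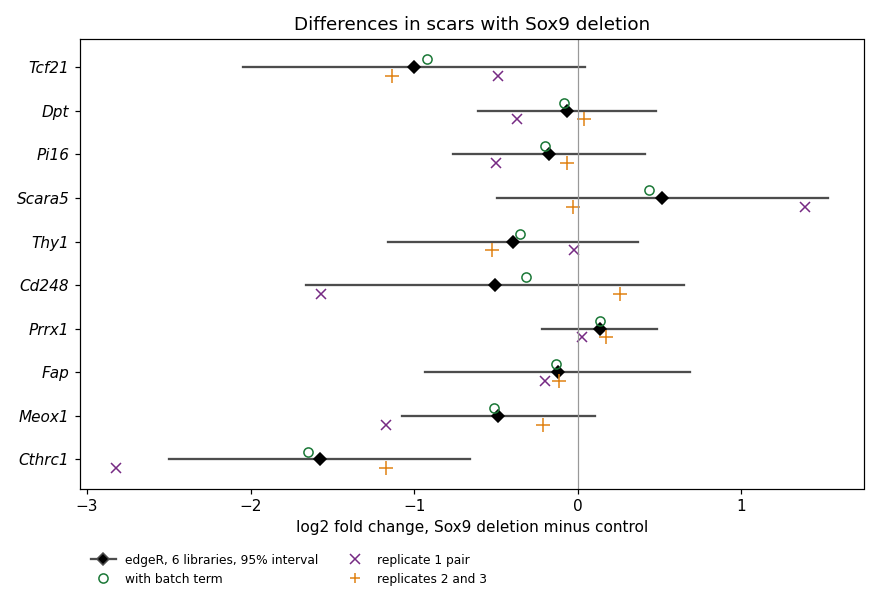
Log2 fold change of each gene (x axis, Sox9 deletion minus control), with the edgeR estimate and its 95% interval from 6 libraries (diamonds), the estimate with a batch term (open circles), the replicate 1 pair (crosses) and replicates 2 and 3 (plus signs). The Cthrc1 interval, -2.5 to -0.66, lies below 0, and the replicate 1 pair and replicates 2 and 3 stand on opposite sides of 0 for Dpt, Scara5 and Cd248.

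Each gene was also set against general fibroblast RNA, as its log2 ratio to the mean level of 16 pan-fibroblast genes. This ratio shifts all genes upward in deletion scars: its median difference over all 14771 genes was 0.47, with 86.9% positive, beside 0.25 for the 10, of which 7 were positive and 2 (Prrx1 and Scara5) above the median of all genes. Signs on this ratio therefore follow the scaling and are read against that median. The 16 pan-fibroblast genes (such as Pdgfra, Dcn, Lum and the fibrillar collagens, all 16 measured) summed to 8656, 18620 and 17510 CPM in deletion replicates 1 to 3, against 18210, 21610 and 21950 CPM in control replicates 1 to 3. Their median log2 fold change was -0.45, with 15 of 16 negative and none called. The log2 ratio of Cthrc1 to their mean level was -6.12, -5.66 and -5.83 in deletion replicates 1 to 3, against -4.20, -5.20 and -4.57 in control replicates 1 to 3, a difference of -1.21 without overlap. Groups did not overlap on this ratio, with deletion lower, in 0.975% of all genes. No test was made of the ratio, and the part of fibroblast content in the Cthrc1 difference was not tested. The groups also did not overlap on the ratio of Cthrc1 to Postn, the periostin gene of activated fibroblasts. On the log2 scale this ratio was at -7.18, -6.84 and -6.92 in deletion replicates 1 to 3, against -5.79, -6.48 and -5.05 in control replicates 1 to 3. The share of all genes without overlap on the Postn ratio is not given here. The labels do not say whether Per-Cre uses the Postn promoter, and any effect of the Cre on Postn was not tested. Tcf21 had a difference of -0.41 on the ratio to the pan-fibroblast genes, with overlap.

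The deletion libraries of Dpt and Fap all lay above their controls on the pan-fibroblast ratio, as did those of 17.8% of all genes. For Dpt it was 0.67, 0.20 and 0.23 in deletion replicates 1 to 3, against 0.13, 0.05 and -0.29 in control replicates 1 to 3. For Fap it was -4.22, -4.27 and -4.25 in deletion replicates 1 to 3, against -4.93, -4.37 and -4.49 in control replicates 1 to 3. Their differences, 0.41 for Dpt and 0.35 for Fap, were smaller than the 0.47 of the median gene. Prrx1 (0.62) and Scara5 (1.01) had positive differences with overlap. Meox1 was at -0.03 with overlap, below the 0.47 of the median gene. In an edgeR fit scaled to the summed counts of the 16 genes, the median of all genes moved to 0.59, from -0.02 with TMM scaling, and all 10 genes except Prrx1 and Scara5 lay below that shifted median, while none passed (edgeR adjusted p = 0.356 for Cthrc1).

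**Figure D4:**
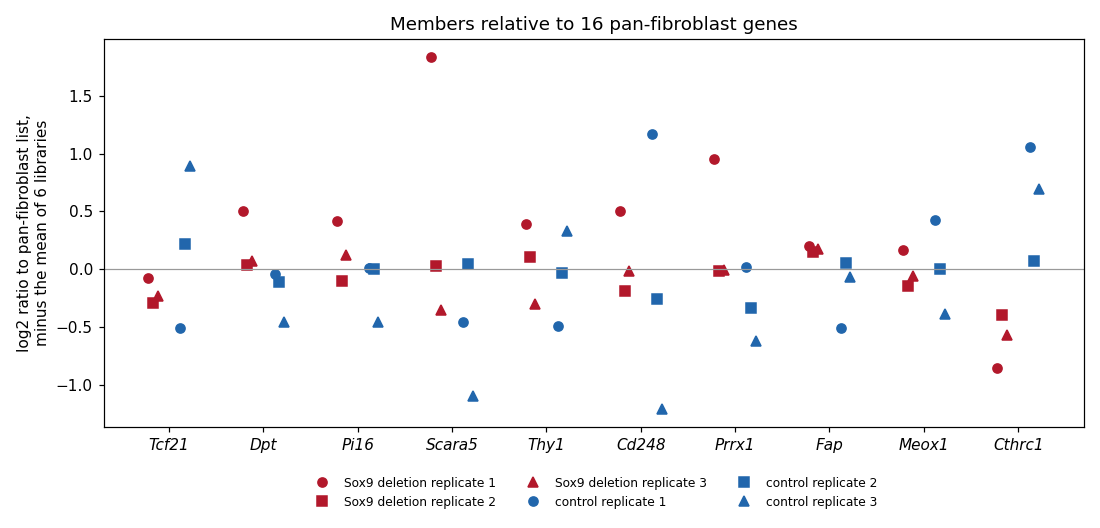
Log2 ratio of each gene to the mean level of 16 pan-fibroblast genes, minus its mean over 6 libraries (y axis), in 3 Sox9-deletion libraries (red) and 3 control libraries (blue). All 3 deletion points of Cthrc1 lie below its control points (difference -1.21), and those of Dpt and Fap lie above (0.41 and 0.35, beside a median of 0.47 over all genes).

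Per transcript length, the order of the 10 was led by the quiet identity genes. TPM values were computed from the counts and the listed transcript lengths, so a gene with another dominant transcript would shift. Dpt averaged 692 ± 224 TPM in deletion scars and 815 ± 191 TPM in controls, and Pi16 averaged 346 ± 123 TPM in deletion scars and 439 ± 121 TPM in controls (SD, n = 3 each). Dpt exceeded Pi16, and Pi16 exceeded Cd248, in all 6 libraries. Next came Cd248, at 65.6 ± 19.0 TPM in deletion scars and 101 ± 59.0 TPM in controls, and Meox1, at 60.3 ± 22.9 TPM in deletion scars and 93.6 ± 17.5 TPM in controls. Their order held in 4 of 6 libraries. Tcf21, Prrx1 and Thy1 followed, with means over all libraries of 62.0, 45.0 and 45.0 TPM, and Tcf21 exceeded Prrx1 in 2 of 6 libraries, so these neighbours did not differ beyond their spread. Cthrc1 was at 14.1 ± 7.5 TPM in deletion scars and 46.2 ± 7.38 TPM in controls. It exceeded Fap in 3 of 6 libraries, which were the control libraries. Fap averaged 17.9 ± 7.80 TPM in deletion scars and 21.9 ± 8.63 TPM in controls, and Scara5 was lowest, at 13.4 ± 3.80 TPM in deletion scars and 11.3 ± 6.12 TPM in controls.

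**Figure D5:**
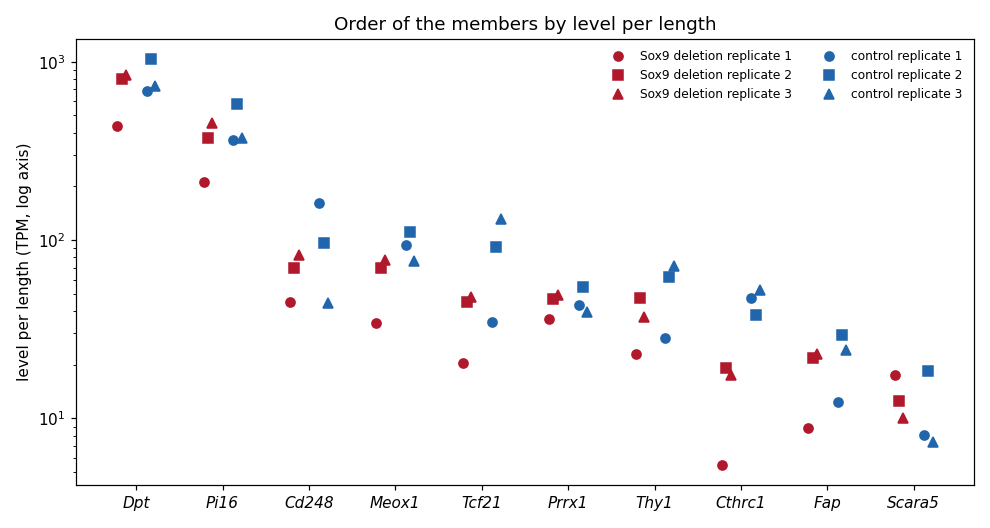
Level per transcript length (y axis, TPM, log axis) of the 10 genes, ordered by their mean, in 3 Sox9-deletion libraries (red) and 3 control libraries (blue). Dpt and Pi16 stand above the rest in every library, and Cthrc1 has the widest range, from 5.48 TPM in deletion replicate 1 to 52.7 TPM in control replicate 3.

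Other fibroblast genes were counted by state, and none of them passed an edgeR adjusted p of 0.05. Among 18 adventitial genes, 12 had a negative and 6 a positive log2 fold change, with a median of -0.18, and among 15 resident cardiac fibroblast genes 9 were negative and 6 positive, with a median of -0.05, beside -0.02 for all genes. The fibrillin gene Fbn1 averaged 445 ± 177 CPM in deletion scars and 815 ± 82.1 CPM in controls, without overlap, and the surface antigen gene Cd34 averaged 284 ± 29.9 CPM in deletion scars and 345 ± 64.6 CPM in controls, with overlap (SD, n = 3 each). Of the resident list, the 2 genes with the highest mean CPM had opposite signs: the lipoprotein lipase gene Lpl had a log2 fold change of 0.98 ± 0.45 and the apolipoprotein gene Apoe one of -0.57 ± 0.32 (SE, edgeR adjusted p = 0.564 and 0.568). Lpl put the 6 libraries in the same order as the summed CPM of cardiomyocyte markers. By the mean log2 level of those markers, deletion replicate 3 and control replicate 1 changed places. The part of other cell types in the Lpl and Apoe values was not tested. Among the pan-fibroblast genes, the collagen gene Col3a1 was at -0.51 ± 0.40 and the decorin gene Dcn at -0.31 ± 0.30 (SE, edgeR adjusted p = 0.657 and 0.706).

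Activation and scar-maintenance genes had more negative medians than the adventitial and resident lists. Among 24 genes of activated fibroblasts and myofibroblasts, 23 were negative and 1 positive, with a median of -0.68. Their groups did not overlap in 9 with deletion lower and in 1 with deletion higher, beside 8.6% and 8.87% of all genes. Ctgf, a matricellular growth factor gene, averaged 744 ± 263 CPM in deletion scars and 1398 ± 242 CPM in controls (SD, n = 3 each), without overlap. Postn averaged 949 ± 347 CPM in deletion scars and 1306 ± 398 CPM in controls, with overlap. All 12 measured matrifibrocyte genes, which mark fibroblasts of mature mouse scars, were negative, with a median of -0.89. Mgp, which encodes an inhibitor of calcification, had a log2 fold change of -0.96 ± 0.41 without overlap, and the clusterin gene Clu one of -0.49 ± 0.29 with overlap (SE, edgeR adjusted p = 0.564 and 0.585). The medians of both lists were -0.40 and -0.51 without deletion replicate 1. With the batch term, DESeq2 called 7 genes lower and 1 higher of the 24, and 7 lower and 0 higher of the 12, beside 4.12% lower and 8.93% higher of all genes. Negative medians were not particular to fibroblast lists: -0.528 for macrophage, -0.948 for T cell, -1.22 for epicardial and mesothelial and -4.15 for adipocyte markers. Lymphatic endothelial (-0.455) and smooth muscle markers (-0.121) were also negative. Medians were positive for cardiomyocyte (0.904), pericyte (0.491), endothelial (0.295) and Schwann and neuronal markers (0.241).

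The positive gene among the 24 was Lrrc15, a membrane protein gene of myofibroblasts, named here after its values were seen. It was at 47.3, 7.08 and 4.83 CPM in deletion replicates 1 to 3, against 1.5, 1.65 and 2.35 CPM in control replicates 1 to 3. Every deletion library was above every control library, and deletion replicate 1 was far above the rest. The log2 fold change was 3.37 ± 0.92 (SE, edgeR adjusted p = 0.564, DESeq2 adjusted p = 0.0159), and it was 1.54 in replicates 2 and 3. Lrrc15 and Cthrc1, both activation genes, thus differed in opposite directions in these libraries.

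Among 26 mesenchymal transcription factor genes, 19 were negative and 7 positive, with a median of -0.32. Groups did not overlap in 1 of the 26 with deletion higher and in 3 with deletion lower, beside 8.87% and 8.6% of all genes. The 1 with deletion higher was Tead1, a Hippo pathway factor gene. Its log2 fold change was 0.38 ± 0.17, and the cardiac T-box gene Tbx20 was at -0.15 ± 0.25 (SE, edgeR adjusted p = 0.564 and 0.834). The part of cardiomyocyte content in these values was not tested. Among 15 genes for receptors of fibroblasts, 12 were negative and 3 positive, with a median of -0.33. The receptor genes Lrp1 and Il6st were at -0.48 ± 0.37 and -0.23 ± 0.23 (SE, edgeR adjusted p = 0.651 and 0.716).

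The genes whose levels followed each marker most closely were sought among 11063 genes with a mean of at least 5 CPM, by Pearson's r of log2 CPM over 6 libraries, as a description with no test. For Tcf21 they were Cmtm6 and C87436 (r = 0.998 each) and Cd33 (0.997), a myeloid surface gene. For Cthrc1 they were S100b, Ptx3 and Dact1 (0.996 each). For Pi16 they included Tmod2 (0.997) and Rab3d (0.996), and for Meox1 they were Parn (0.998), Selenon (0.997) and Lrrn2 (0.996). All share the 6 libraries and their batch.

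In the authors' deposited table the log2 fold change had the same sign as the edgeR value in 10 of 10 genes. The authors' deposited table gave -1.73 for Cthrc1, -0.94 for Tcf21 and -0.54 for Meox1. Its score was 1 for each of these, and it was above 0.95 in 79% of all genes.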

How the data were processed

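RNA-seq of infarct scars was analysed in 3 Sox9-deletion and 3 control libraries. Per the submitters' processing notes, the tools were Trim Galore, STAR and deepTools and the build mm10. Which counter was used, and whether by strand, is not stated in these notes. Raw counts per gene, a TMM-labelled signal, its log2 fold change and a score were deposited by the authors. The deposited signal was not tested: the median absolute log2 difference between replicate 1 and replicates 2 and 3 was 0.00958 in it and 0.335 in CPM from counts.

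Counts were tested with edgeR 4.0.16 (R 4.3.3; TMM factors, filterByExpr by group, robust quasi-likelihood F test, prior count 2), with Benjamini-Hochberg adjustment over 14771 genes and a threshold of 0.05. CPM values use TMM-scaled totals. DESeq2 1.42.0, a batch term, a replicate block, other scalings and filters, and leaving out each library were alternatives, 19 planned and 2 added after seeing the data (DESeq2 and the pan-fibroblast scaling, each with the batch term). The code was tested on simulated data without a batch, with 100 genes changed by a log2 fold change of 1 in size and 100 by 2. At the spread of the main fit, edgeR recovered 12% and 71% of them, with 2 false calls. DESeq2 recovered 45% and 85%, with 61 false calls. At the lower spread of the batch-term fit, false calls were 19 for edgeR and 55 for DESeq2. Fits with a batch term were not simulated. An exact permutation test of 3 against 3 cannot go below 0.1 and was not used. Total counts per library, given with the results, limit precision, and the Poisson interval covers counting error only.

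The 10 genes and all lists were chosen with earlier results of these data known. Named beside them are Sox9, Postn, the 2 genes of highest mean CPM in each list and, for Tcf21, Pi16, Meox1 and Cthrc1, the 3 genes of highest correlation, of which 1 is not reported here.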

Additional observations from a re-analysis of the deposited data

How the results depend on the processing

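Cthrc1, Tcf21 and Prrx1 kept their direction in all 21 alternatives. edgeR called 0 of 14771 genes (1232 at an unadjusted p below 0.05), DESeq2 51, edgeR with the batch term 1 (Myot, higher), DESeq2 with the batch term 1927 and the pan-fibroblast scaling with the batch term 2882. Of the 10 genes these called 0, 1, 0, 2 and 2, the last being Scara5 (higher) and Cthrc1 (lower). Under that last scaling, 2805 of the 2882 calls were higher in deletion scars. The median of the 10 was 0.26 with pan-fibroblast scaling (0.27 with the batch term) and -0.0917 in replicates 2 and 3. Pan-fibroblast scaling, without and with the batch term, reversed Dpt (0.47 and 0.45), Pi16 (0.35 and 0.34), Thy1 (0.17 and 0.18), Fap (0.38 and 0.40), Meox1 (0.00387 and 0.0166) and Sox9 (0.0435 and 0.00778), and with the batch term Cd248 (0.20) and Postn (0.0038); it moved the median of all genes to 0.59 and 0.51. Replicates 2 and 3 alone reversed Dpt (0.0393), Scara5 (-0.0276) and Cd248 (0.26). Leaving out 1 library gave 0 to 0 calls, over all genes and over the 10, a median between -0.40 and -0.14, and ranges of -0.16 to 0.0822 for Dpt, -0.88 to 0.16 for Cd248 and -0.35 to 0.11 for Fap. The cause was not tested. Same-numbered libraries correlated at 0.482, 0.0131 and 0.18 for replicates 1, 2 and 3 in their deviations. The replicate 1 value was the highest of all pairings. Deletion replicate 2 with control replicate 3 gave 0.393 and deletion replicate 3 with control replicate 2 gave 0.308, so the numbers did not pair replicates 2 and 3. With the replicate block edgeR called 0 genes (2560 at an unadjusted p below 0.05) and the median of the 10 was -0.23. Depth limits Cthrc1 most, at 71 reads in deletion replicate 1.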
